A study of Mus musculus with 10 samples.

Results

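The visual cycle genes Rbp3, Rdh12, Rdh8, Rlbp1, Rgr, Rpe65, Lrat, Rdh5, Rrh and Stra6 were followed in ChIP-Seq of whole mouse retina for the active promoter mark H3K4me2 and the repressive mark H3K27me3. They were chosen by symbol and known role, with no threshold on their values, and all 10 had an entry among the 20045 gene symbols of the table, with 14 of its 25152 entries. Chromatin was taken from retinas at embryonic day E17.5 and on postnatal days 1, 7 and 15 (PN1, PN7, PN15), pooled from at least 20 retinas per the labels. There was 1 library for each of the 2 marks and 4 stages, so no value has a replicate, no test between stages was possible and no p-value is given. The study describes these mice as wild type C57BL/6j, whereas the sample labels name the Pde6b rd1/rd1 strain, in which rods degenerate, for every library and write the embryonic stage as E17. None of the titles of these 8 libraries names rd1, which is in the title of 1 other library that was not analysed here, and the description of the study was followed.

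In the visual cycle, light converts the cis chromophore of the opsins to its all-trans form, which is reduced to retinol in the photoreceptor, carried to the retinal pigment epithelium, esterified, isomerized and oxidized, and then returned. A cone-related route is thought to run partly through Müller glia. The genes were therefore read by the cells they are known for. Rbp3 (the interphotoreceptor retinoid carrier), Rdh12 and Rdh8 (reductases of all-trans retinal) belong to photoreceptors. Rlbp1 (CRALBP, the cis retinoid binding protein) and Rgr (a retinal binding opsin) belong to Müller glia and the pigment epithelium. Lrat (the retinol esterifying enzyme), Rpe65 (the isomerase), Rdh5 (a cis retinol oxidase), Rrh (peropsin) and Stra6 (the receptor for plasma retinol binding protein) are best known from the pigment epithelium.

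Each value is a normalized occupancy, the reads within 2.5 kb of a RefSeq transcription start site (TSS) scaled by the authors to the mapped reads of the library and rounded. Read totals are not in the table. Every whole number from 0 to at least 109 occurred in each library, so that 1 read was worth at most 1 unit, and the 95% intervals given here are exact Poisson intervals that take 1 unit as 1 read. They cover counting error only. Background was the 99th percentile of 1053 olfactory receptor entries, genes taken as silent in retina. In stage order it was 6, 9, 1 and 9.48 for H3K4me2, and between 33.5 and 44.0 for H3K27me3. Some receptor entries carried H3K27me3, with highest values of 89 to 207, so this level is strict, and the 95th percentile of the same entries was 21, 22, 22.4 and 29. Above the latter but below the level used lay H3K27me3 at Rdh12 at PN1, Rdh8 at PN7 and Stra6 at PN1 and PN7. A change is the log2 ratio of 2 values with 1 added to each, minus its median over all symbols. A gene was called higher or lower where this reached 2-fold and the larger value exceeded background. The subtracted median was 0.13 for H3K4me2 and 0.00 for H3K27me3 from E17.5 to PN15, but 1 (2-fold) for H3K4me2 from PN7 to PN15.

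Between E17.5 and PN15 H3K4me2 rose at Rbp3, Rdh8, Rdh12 and Rgr and fell at Rlbp1, Stra6, Rrh and Lrat. Thus 4 of 10 genes were called higher, against 2.67% of all symbols, and 4 were called lower, against 7.58%. The 3 photoreceptor genes were all among those called higher, while none of the 5 pigment epithelium genes was. H3K27me3 rose at Rlbp1 and Stra6 (2 of 10 genes, against 1.88% of symbols) and fell at Rdh8 (1 of 10, against 7.43%).

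**Figure D1:**
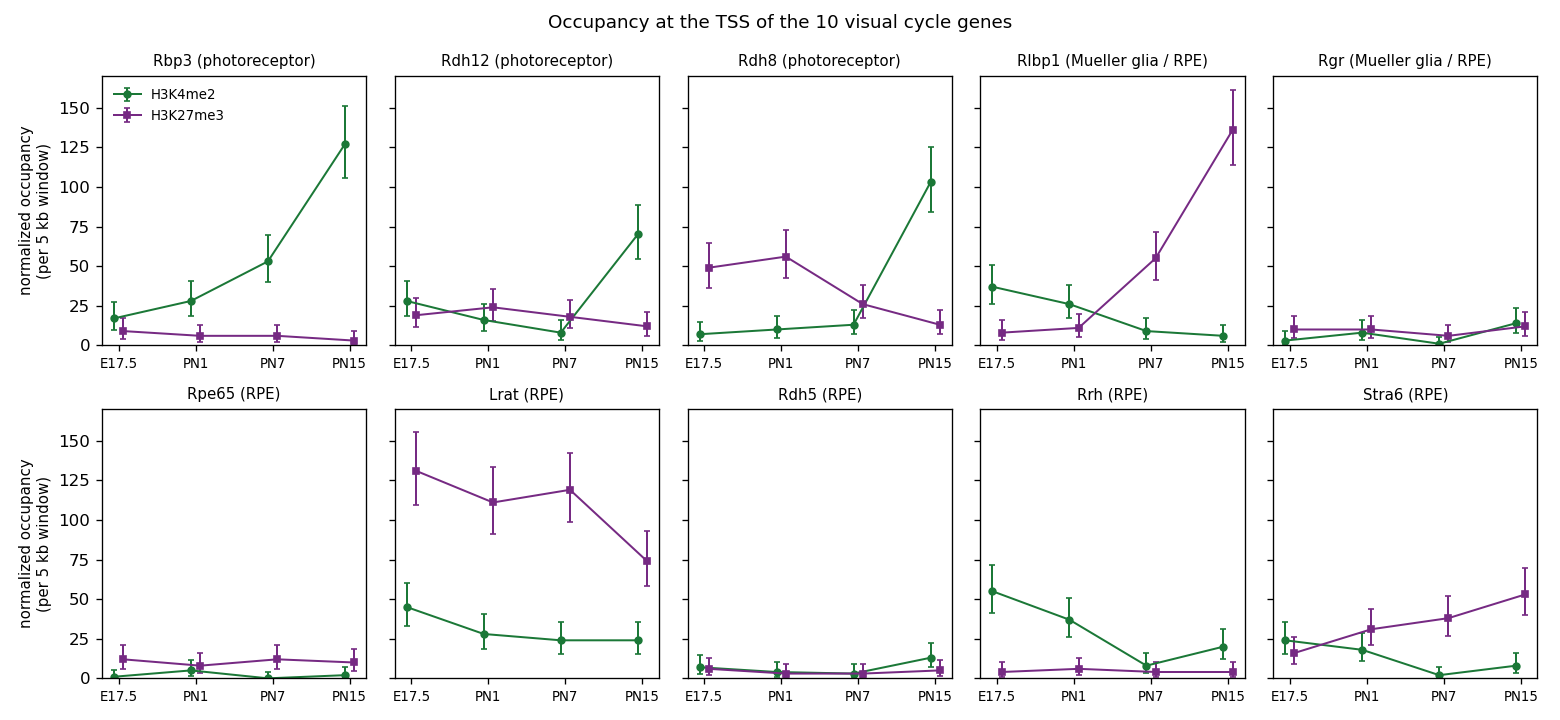
Normalized occupancy (vertical axis, linear, per 5 kb window) of H3K4me2 and H3K27me3 against the 4 stages (horizontal axis) for each of the 10 genes, with 1 library per point and bars for the 95% counting interval. H3K4me2 climbs to 127, 103 and 70 at Rbp3, Rdh8 and Rdh12, and the 2 marks cross at Rlbp1.

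Rbp3 lies on chromosome 14 of mm9 (34767208 to 34777402, plus strand). Its H3K4me2 occupancy rose from 17 at E17.5 over 28 (PN1) and 53 (PN7) to 127 at PN15, and its H3K27me3 occupancy was 9, 6, 6 and 3 in the same order. H3K4me2 was thus higher at each stage than at the one before, and the intervals at E17.5 (9.90 to 27.2) and PN15 (105.9 to 151.1) did not overlap. The change of 2.70, or 7.11-fold on the scale of values plus 1, exceeded that of 99.7% of symbols. Relative to the median symbol, which changed by −0.94 from E17.5 to PN7, most of this was reached by PN7. In units the larger rise was from 53 at PN7 to 127 at PN15. Rbp3 was called higher from E17.5 to PN1, as the 1 gene of the 10 against 1.18% of symbols, with a change of 1.10. It was called again from PN1 to PN7, alone against 13.6%, with 1.40. Both calls rest on the subtracted medians of −0.415 and −0.500. Without them the changes were 0.69 and 0.90, below 2-fold, and the intervals overlapped at both steps. From E17.5 to PN7, with a change of 2.52, Rbp3 was called together with Rdh8 (2 of 10, against 10.4%). Among all symbols Rbp3 moved from percentile 33.8 of H3K4me2 at E17.5 to percentile 95.8 at PN15. H3K27me3 stayed below background at all 4 stages, so its difference of −1.32 was not called.

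Rdh8 (chromosome 9, 20622948 to 20630607, plus strand) had H3K4me2 values of 7, 10, 13 and 103 and H3K27me3 values of 49, 56, 26 and 13 in stage order. Most of its H3K4me2 gain in units came between PN7 and PN15, and its H3K27me3 stood above background at E17.5 and PN1 and below it afterwards. The H3K4me2 intervals of the first and last stage were 2.81 to 14.4 and 84.1 to 124.9, a change of 3.57 (13-fold on values plus 1) that was larger than in 99.9% of symbols. From E17.5 to PN7 the rise from 7 to 13 was also a call, with a centred change of 1.75, although its intervals overlapped. H3K27me3 changed by −1.84, with intervals of 36.2 to 64.8 and 6.92 to 22.2. The collagen gene Col5a3 starts 3427 bp upstream on the opposite strand, so that 31.5% of the Rdh8 window also belongs to Col5a3. The values of Col5a3 were 14, 13, 6 and 26 for H3K4me2 and 83, 107, 55 and 26 for H3K27me3. H3K27me3 was therefore higher at Col5a3 than at Rdh8 in every library, whereas H3K4me2 at PN15 was higher at Rdh8. How much of the H3K27me3 at Rdh8 came from the shared bases was not tested.

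Rdh12 (chromosome 12, 80309901 to 80323652, plus strand) had H3K4me2 values of 28, 16, 8 and 70 and H3K27me3 values of 19, 24, 18 and 12. Its H3K4me2 was lowest at PN7 and highest at PN15, and H3K27me3 was below the background level used at all stages. From E17.5 to PN15 H3K4me2 changed by 1.16, with intervals of 18.6 to 40.5 and 54.6 to 88.4, more than in 96.1% of symbols. This call was lost when a 3-fold change was required. Rdh11, a related reductase that starts 17058 bp upstream of Rdh12 on the opposite strand, had H3K4me2 values of 59, 43, 21 and 95 and a change of 0.55, which was not called.

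From PN7 to PN15 H3K4me2 was called higher at 3 of the 10 genes, Rdh12, Rdh8 and Rgr, against 5.01% of symbols, with changes of 1.98, 1.89 and 1.91. With a pseudocount of 5, or with the background at the highest receptor entry, Rgr lost this call and 2 genes were left. H3K4me2 was called lower at 2 genes, against 13.6% of symbols, namely Rlbp1 (9 and 6) and Lrat (24 at both stages), whose values fell behind the median symbol. Rbp3 rose from 53 to 127 over the same interval, but relative to the median symbol this was 0.25 and not a call. In that library at PN7, 19.5% of entries had a value of 0, a larger share than in the 7 others, and without subtraction of the median 6 of the 10 genes would be called higher, against 29.1% of symbols. With PN1 in place of PN7, an alternative added after the values were seen, 3 genes were called higher (Rbp3, Rdh12 and Rdh8), against 3.89% of symbols. Rbp3, Rdh12 and Rdh8 are also on a list of genes that the study chose from these libraries, so their H3K4me2 gain is not independent evidence of its direction.

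Rlbp1 (chromosome 7, 86519757 to 86531913, minus strand) showed the opposite course. Its H3K4me2 values were 37, 26, 9 and 6, and its H3K27me3 values 8, 11, 55 and 136. H3K4me2 was at or above 26 up to PN1 and below background at PN15, whereas H3K27me3 was below background up to PN1 and above it at PN7 and PN15. The intervals were 26.0 to 51.0 and 2.20 to 13.1 for H3K4me2 at E17.5 and PN15, a change of −2.57, and 0.733% of symbols had a lower one. For H3K27me3 they were 3.45 to 15.8 and 114 to 161, a change of 3.93 (15.2-fold on values plus 1) that exceeded that of 99.9% of symbols. Rlbp1 was the 1 gene of the 10 that was called higher for H3K27me3 both from PN1 to PN7, against 1.26% of symbols, with a change of 2.38, and from PN7 to PN15, against 0.673%, with a change of 1.29. Its percentile of H3K27me3 was 34.6, 54.1, 87.4 and 97.5 in stage order. Both Rlbp1 entries held identical values.

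Fanci, a DNA repair gene on the opposite strand, starts 4902 bp upstream of Rlbp1 in GENCODE, which gives a shared stretch of 99 bases, and 5311 bp upstream in RefSeq, which gives none. Its H3K4me2 values were 73, 46, 42 and 31 and its H3K27me3 values 8, 7, 20 and 84. Fanci thus also stood low in H3K27me3 up to PN1 and high at PN15, at a lower value than Rlbp1. Polg, 79246 bp upstream and named after its values were seen, had H3K27me3 values of 26, 21, 28 and 45.

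Rgr (chromosome 14, 37850676 to 37862150, minus strand) carried little of either mark. Its H3K4me2 values were 3, 8, 1 and 14 and its H3K27me3 values 10, 10, 6 and 12. H3K4me2 exceeded background at PN15 alone, and H3K27me3 at no stage. The H3K4me2 change of 1.77 met the call, but the intervals at E17.5 (0.619 to 8.77) and PN15 (7.65 to 23.5) overlapped, and the call was lost with the background set at the highest receptor entry. Genes upstream of Rgr, named after their values were seen, had more H3K4me2 at PN15. Of these, Lrit1 and Lrit2 are among the genes the study picked from these same libraries for a late H3K4me2 gain. Lrit1, 5816 bp upstream, had H3K4me2 values of 11, 13, 24 and 97, and Lrit2, 19015 bp upstream, had 28, 24, 19 and 172. Cdhr1, a photoreceptor cadherin 49333 bp upstream, had 21, 18, 39 and 138. The window of Rgr shares no base with theirs, and whether their signal reaches into it was not tested.

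**Figure D2:**
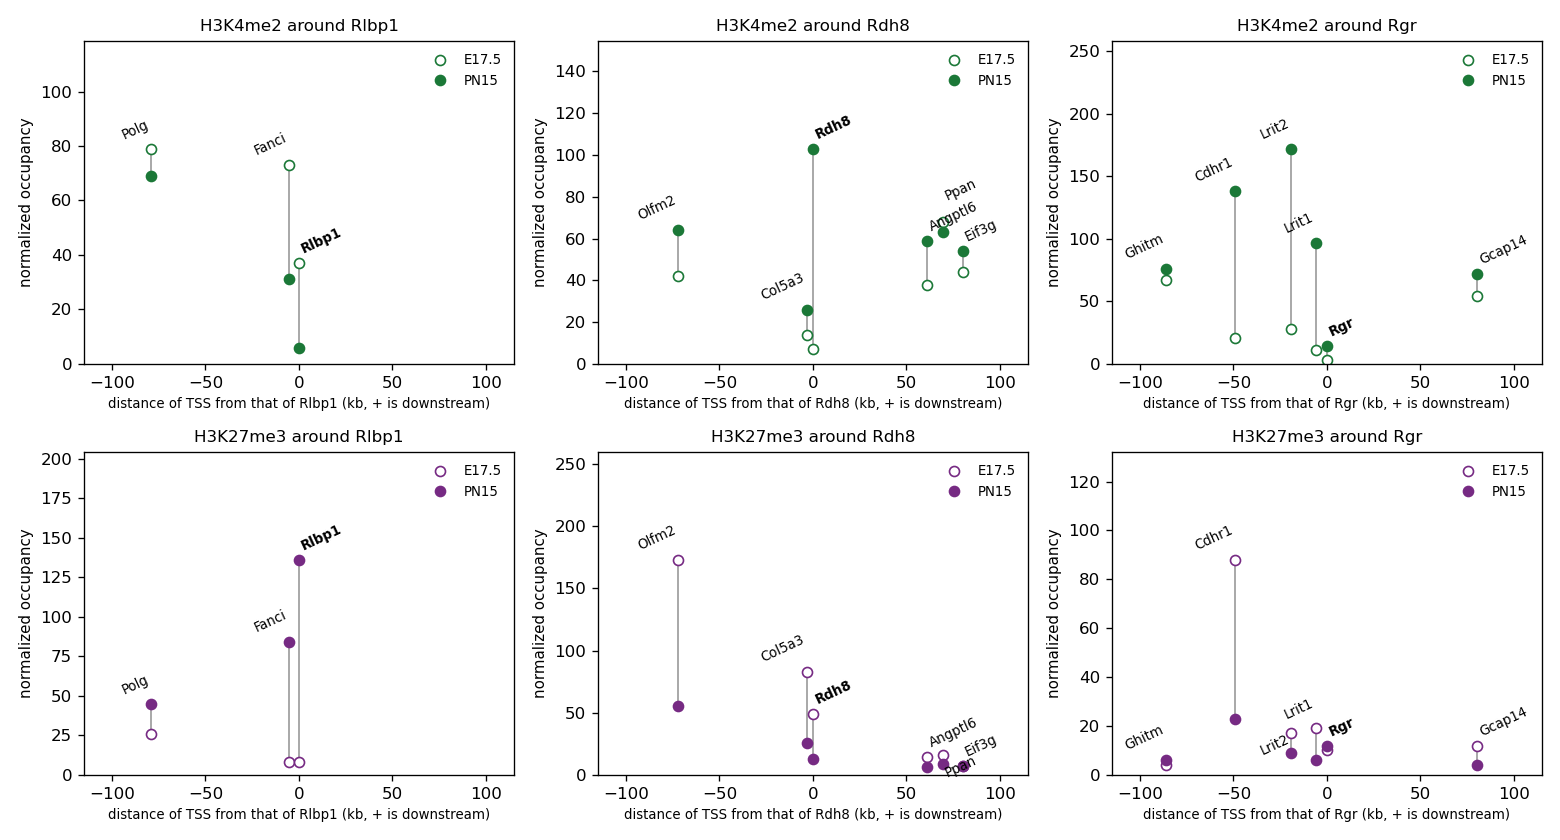
Normalized occupancy (vertical axis) of H3K4me2 (upper row) and H3K27me3 (lower row) at E17.5 (open points) and PN15 (filled points) for the genes with an entry within 100 kb of Rlbp1, Rdh8 and Rgr, against the distance of their start from that gene (horizontal axis, kb, positive downstream). Fanci beside Rlbp1 goes from 8 to 84 for H3K27me3, and Lrit1, Lrit2 and Cdhr1 upstream of Rgr end at 97, 172 and 138 for H3K4me2.

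Of the pigment epithelium genes, Rpe65 (chromosome 3, 159262197 to 159287763, plus strand) had almost none of either mark. Its H3K4me2 values of 1, 5, 0 and 2 were below background at every stage, and the interval of the 0 at PN7 reached up to 3.69. Its H3K27me3 values of 12, 8, 12 and 10 were below background as well and close to the median symbol, at percentiles between 39.9 and 59.8. No change at Rpe65 was detectable.

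Lrat (chromosome 3, 82696501 to 82707895, minus strand) differed from Rpe65 in carrying both marks throughout. H3K4me2 was 45, 28, 24 and 24, and H3K27me3 was 131, 111, 119 and 74. Its H3K27me3 lay between percentile 91.8 and percentile 93.5 at all stages. The H3K27me3 interval fell from between 109.5 and 155.4 at E17.5 to between 58.1 and 92.9 at PN15, a change of −0.82 that was not called. H3K4me2 changed by −1.01, with overlapping intervals of 32.8 to 60.2 and 15.4 to 35.7, and this call rests on the subtracted median, since the change was −0.88 without it. A noncoding gene, Rbm46os, starts 503 bp upstream on the opposite strand and has no entry of its own. The windows of the 2 starts share 4498 bases, so their signals cannot be told apart.

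Rdh5 (chromosome 10, 128350649 to 128359944, minus strand) had H3K4me2 values of 7, 4, 3 and 13 and H3K27me3 values of 6, 3, 3 and 5. Both marks were low at every stage, and neither was called. Bloc1s1, a subunit gene of a lysosome biogenesis complex, starts 4227 bp upstream and shares 15.5% of the window. It had H3K4me2 values of 57, 34, 23 and 59. Their part in the values of Rdh5 was not tested.

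Rrh (chromosome 3, 129507326 to 129525423, minus strand) had H3K4me2 values of 55, 37, 8 and 20, and its H3K27me3 values of 4, 6, 4 and 4 were the lowest of the 10 genes at E17.5. H3K4me2 fell by 1.55 on the centred log2 scale, and its intervals of 41.4 to 71.6 and 12.2 to 30.9 did not overlap. Loss of H3K4me2 here thus came with no measured gain of H3K27me3.

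Stra6 (chromosome 9, 57911595 to 58001803, plus strand) had H3K4me2 values of 24, 18, 2 and 8 and H3K27me3 values of 16, 31, 38 and 53. In this entry, the one with the largest sum, H3K27me3 was higher at each stage than at the one before and passed background at PN15, with a change of 1.67 and intervals of 9.14 to 26.0 and 39.7 to 69.3. H3K4me2 changed by −1.61, although its intervals (15.4 to 35.7 and 3.45 to 15.8) overlapped. RefSeq lists 4 starts of Stra6, between 57976895 and 57982472, and the table has 4 entries without saying which start each belongs to. One further entry had nearly the same values, with H3K27me3 at 15, 31, 38 and 52. The other two had H3K27me3 values of 25, 20, 29 and 41 and of 21, 18, 27 and 37, which were lowest at PN1, differed by less than 2-fold between the first and last stage and did not exceed background at PN15. The call of Stra6 for H3K27me3 thus depends on the entry, whereas H3K4me2 was lower at the last stage than at the first in all 4.

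At E17.5, 8 of the 10 genes exceeded background for H3K4me2, against 72.6% of symbols, and at PN15 7 did, against 68.3%. H3K27me3 exceeded background at Rdh8 and Lrat at E17.5 (2 of 10, against 17.1%) and at Rlbp1, Lrat and Stra6 at PN15 (3 of 10, against 13.8%). Both marks exceeded it at Rdh8 and Lrat at E17.5 (2 of 10, against 15.6%) and at Lrat alone at PN15 (1 of 10, against 10.9%). With 10 genes the H3K4me2 shares lie near those of all symbols. A gain of H3K4me2 with a loss of H3K27me3 was called at Rdh8 and at 0.574% of symbols, and the reverse was called at Rlbp1 and Stra6 and at 0.529% of symbols. A whole retina cannot tell whether fewer cells carried a mark or each cell carried less of it.

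**Figure D3:**
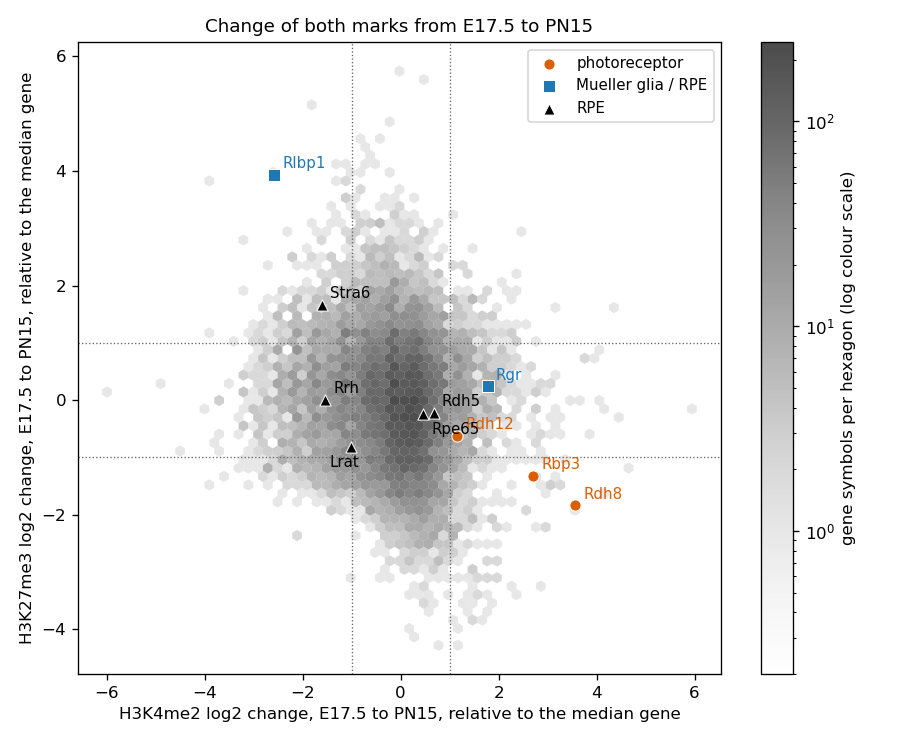
Centred log2 change from E17.5 to PN15 of H3K4me2 (horizontal axis) and H3K27me3 (vertical axis) for the 10 genes over all 20045 symbols (grey hexagons, darker with more symbols on a log colour scale), with dotted lines at a 2-fold change. Rdh8 and Rbp3 lie at the lower right with H3K4me2 changes of 3.57 and 2.70, and Rlbp1 lies at the upper left at −2.57 and 3.93.

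The 250 bases upstream of the starts are shown for some of the genes. They are RefSeq sequences (GRCm38.p6) that were each found once, without a mismatch, in mm9. Entries of all 10 genes matched. Rbp3 and Rlbp1 are shown as genes that gained H3K4me2 and H3K27me3, respectively, and Rpe65 as the gene with neither. Rdh8, with a larger H3K4me2 change than Rbp3, is not shown. In these 3, capitals mark TAATCC (the core of the CRX site), TGCTGA (part of the MAF and NRL site) and CATGTG (an E-box) on either strand. CACGTG and AGGTCA were searched as well and were found upstream of none of the 10 genes.
Rbp3, chr14:34766939-34767188, plus strand: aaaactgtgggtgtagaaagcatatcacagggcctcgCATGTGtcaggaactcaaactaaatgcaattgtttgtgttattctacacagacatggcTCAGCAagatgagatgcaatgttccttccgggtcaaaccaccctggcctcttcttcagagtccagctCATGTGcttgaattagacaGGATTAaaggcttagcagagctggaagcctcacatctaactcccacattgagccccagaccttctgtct
Rlbp1, chr7:86531914-86532163, minus strand: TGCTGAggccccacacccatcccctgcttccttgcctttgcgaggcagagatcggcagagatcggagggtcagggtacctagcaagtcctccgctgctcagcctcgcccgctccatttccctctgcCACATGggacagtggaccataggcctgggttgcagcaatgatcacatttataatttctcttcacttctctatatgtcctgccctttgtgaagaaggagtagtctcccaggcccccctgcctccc
Rpe65, chr3:159261895-159262144, plus strand: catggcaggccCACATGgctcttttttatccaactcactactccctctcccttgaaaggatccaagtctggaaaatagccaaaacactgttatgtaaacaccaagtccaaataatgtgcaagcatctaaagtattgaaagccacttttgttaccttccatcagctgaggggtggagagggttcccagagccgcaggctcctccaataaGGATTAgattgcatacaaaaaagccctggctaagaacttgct

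Counted from the start, Rbp3 held TAATCC on the other strand at −69, TGCTGA on the other strand at −155, and CATGTG at −213 and −88. Rpe65 also held TAATCC on the other strand, at −42, and CATGTG on the other strand at −239. Rlbp1 held TGCTGA at −250 and CATGTG on the other strand at −124. TAATCC was thus upstream of Rbp3, Rpe65 and Rgr, of which Rbp3 and Rgr were called higher for H3K4me2 and Rpe65 was not. Rdh8, which had the largest H3K4me2 change of the 10 genes, held none of the 5 motifs, nor did Lrat or Rdh5. Of 32851 promoters, 6.25% held TAATCC, 16.1% TGCTGA, 12.3% CATGTG, 6.02% CACGTG and 14.0% AGGTCA. These are matches of letters and not measured binding.

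Lrat is shown with each CG in capitals, since it was the gene that kept H3K27me3 above background at every stage.
Lrat, chr3:82707897-82708146, minus strand: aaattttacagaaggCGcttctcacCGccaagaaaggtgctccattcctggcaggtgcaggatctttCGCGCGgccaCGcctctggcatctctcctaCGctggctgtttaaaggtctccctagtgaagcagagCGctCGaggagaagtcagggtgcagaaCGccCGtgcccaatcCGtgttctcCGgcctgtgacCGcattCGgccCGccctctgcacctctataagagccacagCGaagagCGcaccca

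The upstream bases of Lrat held 18 CG, and 83.4% of promoters had a lower CG content relative to their base composition. Rlbp1 held 6, Rdh12 held 5, Rbp3 held 2 and Rpe65 held 1, whereas Rdh8 and Rgr held none. Over the whole 5 kb windows, in which the marks were counted, Lrat held 119 CG, Rdh8 held 47 and Rbp3, which did not exceed H3K27me3 background at any stage, held 130. Rlbp1 and Stra6, which exceeded H3K27me3 background at PN15, held 67 and, by start, between 51 and 64.

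Marker lists were read beside the groups. All 8 rod genes of the list were called higher for H3K4me2 from E17.5 to PN15, with a median change of 2.65, beside 2.70 for the 3 photoreceptor members. The rod transcription factors Nrl, with 35, 26, 24 and 116, and Nr2e3, with 11, 15, 38 and 107, had the same order of PN15 above E17.5. The study names Nrl and Nr2e3 among the genes it picked from these same libraries for a late H3K4me2 gain. The calls of the rod list are thus not independent evidence of such a gain. The sum over the rod list was 144 at E17.5 and 794 at PN15. The part of a growing share of rods in the values of Rbp3, Rdh12 and Rdh8 was not tested.

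The 10 Müller glia markers exceeded H3K4me2 background in every library. Their median H3K4me2 change was −0.70, with 3 called lower and none higher, beside −2.57 at Rlbp1. Glul (glutamine synthetase) had H3K4me2 values of 79, 67, 94 and 111, and Slc1a3 (the glial glutamate transporter) had 88, 63, 36 and 61. Aqp4 had 12, 13, 3 and 16, and Kcnj10 had 47, 30, 37 and 34. None of these 4 was called for either mark, and in H3K27me3 3 of them were lower at PN15 than at E17.5, with changes of −1.22 at Glul, −0.78 at Aqp4 and −0.92 at Kcnj10. Of the 6 other markers, 5 had a higher value (Sox9, Dkk3, Vim, Apoe and Car14), with changes from 0.16 to 1.73. Over the list, H3K27me3 was called higher at 1 of 10, Sox9, with 39, 77, 110 and 132 (this gene and Dkk3, Vim, Apoe and Car14 were named after their values were seen). In every library Sox9 alone of the 10 markers exceeded H3K27me3 background, so the changes of the others lie below it. The median H3K27me3 change of the list was 0.42, against 3.93 at Rlbp1. The summed H3K4me2 of the list was 694 at E17.5 and 475 at PN15.

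Pigment epithelium markers were read as well, and whether that tissue was in the samples was not tested. Of 11 listed genes 10 had an entry, and 7 exceeded H3K4me2 background at E17.5 and 5 at PN15. Tyr (tyrosinase) had H3K4me2 values of 1, 2, 0 and 1 and was never above background, as at Rpe65. Tyrp1, with 7, 8, 2 and 12, was above background at every stage but PN1. Mitf, with 57, 31, 49 and 67, and Dct, with 29, 21, 12 and 24, are also used by other cells and carried more H3K4me2. Dct had H3K27me3 values of 196, 183, 88 and 66. The median H3K4me2 change of the list was −0.05, with 2 called lower and none higher, beside −1.01 for the 5 pigment epithelium members. The latter is the change at Lrat, with a 95% counting half-width of 0.70. The summed H3K4me2 of the list was 170, 124, 86 and 158 in stage order. The part of adhering pigment epithelium in the values of Lrat, Rrh and Stra6 was not tested.

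Widely expressed genes served as a reference. None of 7 was called for either mark, and their median H3K4me2 change was 0.21. Actb had H3K4me2 values of 84, 60, 59 and 68, Gapdh had 106, 55, 77 and 143, Uba1 had 33, 26, 23 and 42, and Hprt had 28, 23, 19 and 45. Their H3K27me3 values lay between 2 and 8.

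**Figure D4:**
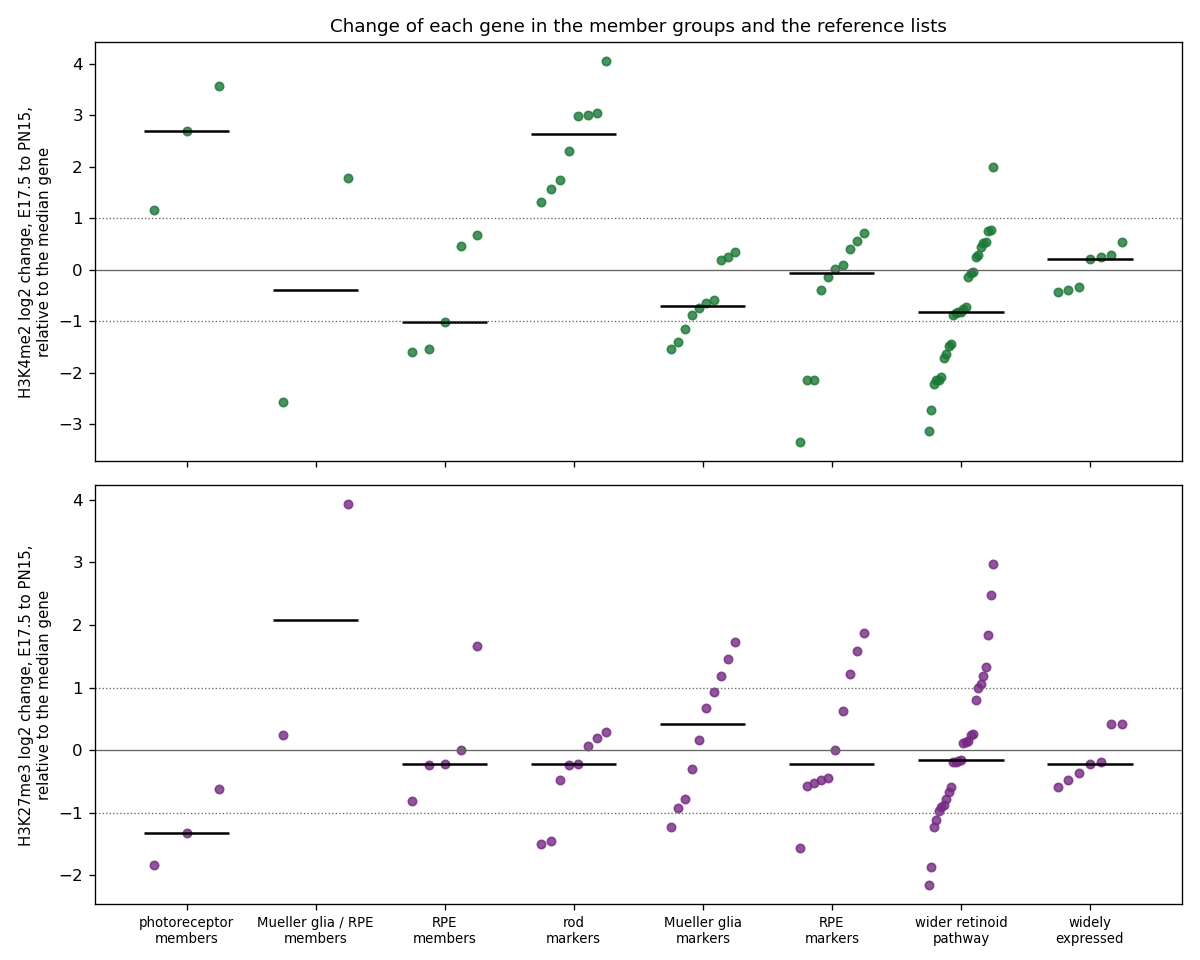
Centred log2 change from E17.5 to PN15 (vertical axis) of H3K4me2 (upper panel) and H3K27me3 (lower panel) for each gene of the 3 groups and the 5 lists (horizontal axis), with 1 point per gene, a bar at the median and dotted lines at a 2-fold change. The 8 rod markers and the 3 photoreceptor members lie above 1 for H3K4me2, while the pigment epithelium members (RPE) have a median of −1.01.

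In the 27 genes of the wider retinoid pathway both directions occurred. H3K4me2 was called higher at 1 of them and lower at 9, and their median change was −0.82. The gene called higher was Abca4, the retinoid transporter of photoreceptor discs. Abca4 had H3K4me2 values of 36, 26, 34 and 160 and H3K27me3 values of 169, 174, 105 and 37, so it gained H3K4me2 and lost H3K27me3 as Rdh8 did. Rdh10, a retinol dehydrogenase, had H3K4me2 values of 113, 93, 73 and 147 and Rdh14 had 40, 26, 19 and 42, and neither was called. H3K27me3 was called higher at 3 of the 27 (Crabp2, Ttr and Opn1sw) and lower at 3 (Abca4, Dhrs3 and Dgat1). Opn1sw, the short wavelength cone opsin, had H3K4me2 values of 11, 9, 2 and 2 and H3K27me3 values of 8, 14, 14 and 49. Ttr, the plasma carrier of the retinol binding protein, had 16, 15, 1 and 5 and 7, 15, 68 and 62. Apart from Abca4, the genes called for H3K27me3 were named after their values were seen.

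The symbols with the most similar course over the 8 libraries were found by Euclidean distance of the log2 values for the member with the largest summed occupancy in each group. For Rdh8 the nearest was Gnat1 (rod transducin) at a distance of 1.30, followed by Pde6b (a rod phosphodiesterase subunit) at 1.76 and Ckm at 1.81, against a median of 6.12 over all symbols. Gnat1 had H3K4me2 values of 11, 8, 8 and 105 and H3K27me3 values of 43, 32, 35 and 15. For Rlbp1 they were Flrt1 at 1.76, Lgi4 at 1.83 and Nrsn2 at 2.07, against a median of 6.57. Flrt1 had H3K27me3 values of 14, 16, 45 and 63, which end lower than the 136 of Rlbp1. For Lrat they were Parp14 at 0.573, Dusp15 at 0.583 and Fam19a4 at 0.656, against a median of 7.80. Among the 10 genes themselves the closest pairs were Rgr and Rdh5 at 2.68, Rdh12 and Rdh8 at 2.83, and Rlbp1 and Stra6 at 2.95. The first of these pairs is close through low values of both marks. Rlbp1 and Stra6, the latter in the entry used, share lower H3K4me2 and higher H3K27me3 at PN15 than at E17.5. Between PN7 and PN15 the H3K4me2 of Stra6 went from 2 to 8.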

How the data were processed

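Chromatin of pooled retinas was immunoprecipitated for H3K4me2 or H3K27me3 and sequenced. The authors mapped reads with Bowtie 0.12.4 to mm9, removed reads with several positions and counted read midpoints in a window of 2.5 kb to either side of every RefSeq TSS. The deposited score is this number after scaling by the authors to total mapped reads and rounding, so no count model was used. Of 10 samples, 2 have no column and were not analysed here. Marks were taken from the sample titles, since the antibody catalogue numbers of the labels and the methods are exchanged, and 0 value columns had no sample.

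A symbol was represented by its entry with the largest sum over 8 libraries. Named were all members, genes starting within 5 kb of one, the 3 nearest courses per group and at most the first 4 genes of each list. Other genes, mainly further neighbours and list genes with a call, were named after their values were seen. The members and lists were chosen with earlier results of these data known. One gene of the rod and wider pathway lists is not reported here and was left out of their counts and medians. Gene positions are those of GENCODE for mm9. Steps used Python 3.11.15, numpy 2.4.6, pandas 2.3.3, scipy 1.17.1 and matplotlib 3.10.9, and were tested on simulated data. Alternatives covered the pseudocount, centring, quantile normalization of the libraries, fold, background, entry and shared windows.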

Additional observations from a re-analysis of the deposited data

How the results depend on the processing

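Of 62 values recomputed under the alternatives, 48 kept their direction and lay within 1.5 times the reported count or, for a median, within the counting half-width of the gene or genes that set it (0.71, 0.70 and 0.98 log2 units for the photoreceptor, pigment epithelium and Müller groups), which still allows some genes to gain or lose a call, 12 moved further and 2 reversed. Without centring, 6 genes rather than 3 were called higher for H3K4me2 from PN7 to PN15, while the share of all symbols went from 5.01% to 29.1%. The 1 gene called lower for H3K27me3 (Rdh8) became 2 with a fold of 1.5 (Lrat added), 2 with no floor (Rbp3 added), 0 with the background at the highest receptor entry and 0 without the members that share a window with a gene of the table (Rdh8, Rdh5 and Rlbp1). The 2 genes above H3K27me3 background at E17.5 became 0 and 1 under these last settings. Without the members that share a window, the median H3K4me2 change was 1.93 rather than 2.70 for the photoreceptor genes, and 1.77 rather than −0.40 for Rlbp1 and Rgr, where Rgr alone was left. Lrat shares its window with Rbm46os, which has no entry. When Lrat was left out too, an alternative added after the values were seen, 0 genes were above H3K27me3 background at E17.5, 4 rather than 7 were above H3K4me2 background at PN15, 0 were called lower for H3K27me3, and these medians were again 1.93 and 1.77. No paired analysis was possible because each mark and stage had 1 library, and no library could be left out. For Rpe65, Rdh5 and Rgr, the genes with the lowest values, the depth limits what can be said of a change.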
